A study of Mus musculus with 39 samples.

Results

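The 31 genes described here are markers and working parts of macrophages and other myeloid cells. They were taken by symbol from the 30012 genes of the count table, and all 31 symbols were found there. They were followed in lung fibroblasts kept in culture with C1q. This protein starts the classical pathway of complement by binding antibody and cell debris. The cells came from lungs of wild-type C57BL/6 mice. Cells carrying CD45 (blood cells), CD31 (endothelium), EpCAM (epithelium), CD146 (mural and endothelial cells) or Ter119 (red cells) had been removed by magnetic separation. After 12 h in culture the cells that had not attached were removed, and the rest were passaged to 24-well plates. Serum was withheld for 24 h. C1q followed, in doses of 1, 10 and 100 µg/ml and for times of 2, 24, 48 and 72 h. That makes 12 treated groups, and with the untreated cells of 0 h there were 13 groups of 3 libraries, or 39 libraries. No untreated group at 2, 24, 48 or 72 h was among the samples, so C1q and time in culture cannot be told apart in any comparison with the untreated cells. Comparisons between doses at 1 time do not have this limit. Whether the 3 libraries of a group stem from separate cultures or mice is not in the labels, so the p-values reflect a spread between libraries that may be technical.

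Macrophages are phagocytes that most tissues, the lung included, hold as resident cells. Their growth and survival depend on the receptor Csf1r and its ligands Csf1 and Il34, and their gene programme depends on the transcription factor PU.1, the product of Spi1. They sense antibody through Fc receptors and lipids through Trem2, and both pass their signals through adaptors with ITAM motifs, Fcer1g and Tyrobp. They bind sugars, lipoproteins and debris with lectins and scavenger receptors such as Mrc1 and Msr1. They also secrete lysozyme and chemokines. Ptprc encodes CD45, the surface protein by which blood cells were depleted here.

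Raw counts per gene had been deposited, and the libraries held from 1806106 to 3012518 of them. Levels below are CPM, a library's counts brought to a common total, scaled between libraries by TMM. In the 24 h group of 1 µg/ml, 1 library (the third) was set off from its replicates on the first principal component of all genes, at 12.5 against -0.511 and 0.555. Without it, 3 of the 31 genes were called at 1 µg/ml after 24 h, as with it. This library is 1 of 9 whose column name is spelled differently from the sample's title, and its replicates are not. All libraries of 10 and 100 µg/ml at 24 h are among the 9 too, at 4.77 to 11.4. Of the 48 h groups, only that of 1 µg/ml holds such libraries. The spelling is thus not balanced over doses at these times, and whether it marks a batch is not in the labels. The labelled cell type held in the data: the summed CPM of 8 fibroblast genes (collagens, Pdgfra, Pdgfrb, Dcn, Lum and Thy1) ran from 5425 to 6145 in untreated libraries and from 7521 to 9342 at 72 h. The 12 lymphocyte genes summed to at most 5.07 CPM in the untreated and 72 h libraries, and 0 of them passed the filter on low counts.

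The myeloid genes as a whole rose late. Their summed level was 535 ± 27.2 CPM in untreated cells, and 526 ± 6.24, 449 ± 5.06 and 489 ± 24.7 CPM after 2 h of 1, 10 and 100 µg/ml (SD, n = 3, here and for the next sums). At 24 h it was 665 ± 36.3, 569 ± 57.1 and 610 ± 29.3 CPM, and at 48 h it was 1119 ± 23.3, 1118 ± 84.3 and 859 ± 27.6 CPM. At 72 h it reached 1814 ± 96.3, 2060 ± 109 and 1412 ± 89.7 CPM. The 72 h libraries thus lay above those of every earlier time at the same dose. As a share of all counts the 31 genes went from 0.0534% to 0.174%, 0.196% and 0.145% at 72 h. Lyz2 and Gpnmb weighed most in this sum, and without them the other 29 genes summed to 227 ± 19.5 CPM in untreated cells and 970 ± 28, 1036 ± 88.8 and 598 ± 23.2 CPM at 72 h. The 6 genes found in leukocytes in general (Ptprc, Laptm5, Cd53, Cd52, Coro1a and Lcp1) summed to 53.5 ± 4.71 CPM in untreated cells and 218 ± 4.12, 227 ± 14.6 and 153 ± 5.73 CPM at 72 h. In such bulk libraries, fewer cells of a type and less RNA per cell cannot be told apart.

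**Figure D1:**
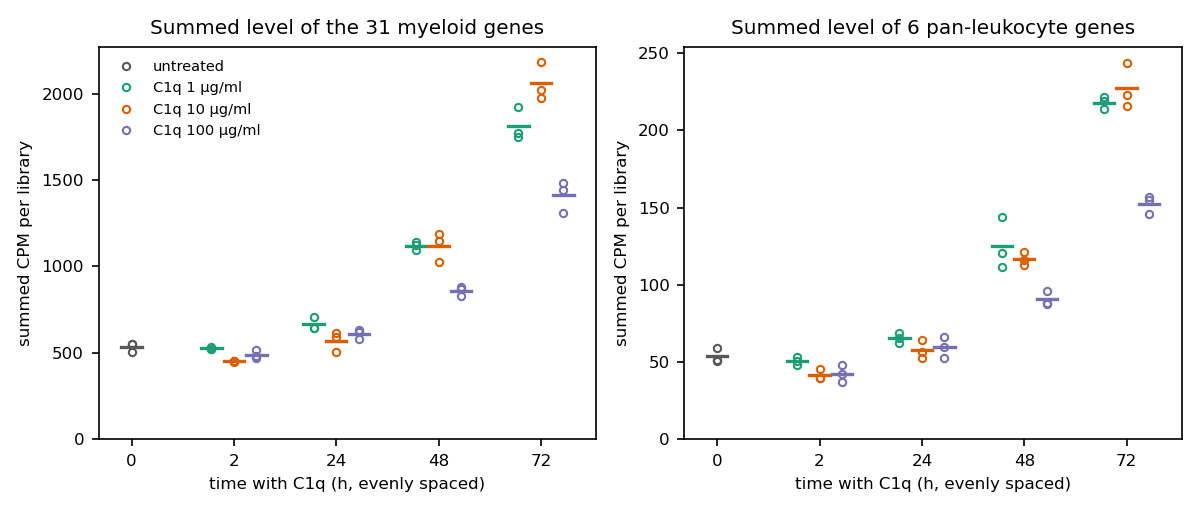
Summed CPM per library (vertical axis) of the 31 myeloid genes (left) and of 6 pan-leukocyte genes (right) by hours with C1q, with times evenly spaced and not to scale. Points are libraries, coloured by dose, and bars are means of 3; at 72 h the 100 µg/ml means, 1412 and 153 CPM, lay below those of 1 µg/ml, 1814 and 218 CPM.

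Because many of these genes moved together, the stretches just upstream of their starts were read for the core of the PU-box, the sequence that PU.1 binds. The RefSeq promoter table of GRCm38.p6 held 22 of the 31 genes. The 6-base core GAGGAA, searched on both strands within 250 bases before the start, was present in 11 of the 22 (50%). It was present in 26% of the 11009 tested genes in the table and in 25.9% of all 27025 genes in it. The start meant here is the RefSeq one. For Ptprc, Fcgr3, Laptm5, Aif1 and Wfdc17 the core lies inside the gene as the GENCODE annotation draws it, and not upstream. How often this holds for all genes was not counted. The longer GAGGAAGT, which contains the core, was found upstream of 1 of the 22 genes, Pf4 (4.55%). It was found for 2.89% of the tested genes and 2.79% of all genes in the table. A match describes letters and is not a bound site. The 7 sequences below, from RefSeq, are those of 5 genes with the core and of 2 chemokine genes without it in this window, chosen because the results below turn on them. They are written 5′ to 3′ on the gene's strand and end at the base before the gene's RefSeq start, except for Mrc1. For Mrc1 the stretch has 228 bases and ends before the first exon in the GENCODE annotation, which begins upstream of the RefSeq start. Wfdc17 holds the core as well, 39 bases before its RefSeq start, but there GENCODE annotates an exon of the gene, and the stretch is not printed. No link between the core and the differences between doses was tested. Capitals mark GAGGAA or its reverse complement TTCCTC.
Mrc1 (chr2:14229164-14229391, plus strand): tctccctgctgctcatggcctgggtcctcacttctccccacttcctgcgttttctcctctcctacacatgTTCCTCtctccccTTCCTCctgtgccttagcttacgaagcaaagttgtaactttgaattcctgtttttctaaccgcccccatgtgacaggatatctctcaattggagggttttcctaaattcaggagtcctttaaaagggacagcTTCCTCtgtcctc
Itgam (chr7:128062390-128062639, plus strand): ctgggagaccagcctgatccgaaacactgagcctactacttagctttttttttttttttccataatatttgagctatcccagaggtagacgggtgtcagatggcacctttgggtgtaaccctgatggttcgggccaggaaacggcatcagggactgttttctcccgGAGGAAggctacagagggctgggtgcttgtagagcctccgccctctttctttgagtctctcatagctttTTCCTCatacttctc
Trem2 (chr17:48346151-48346400, plus strand): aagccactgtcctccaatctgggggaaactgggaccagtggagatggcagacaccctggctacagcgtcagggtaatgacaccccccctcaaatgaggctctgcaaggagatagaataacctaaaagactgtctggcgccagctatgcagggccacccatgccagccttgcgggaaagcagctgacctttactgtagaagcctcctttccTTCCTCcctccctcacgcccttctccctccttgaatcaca
Cd53 (chr3:106790150-106790399, minus strand): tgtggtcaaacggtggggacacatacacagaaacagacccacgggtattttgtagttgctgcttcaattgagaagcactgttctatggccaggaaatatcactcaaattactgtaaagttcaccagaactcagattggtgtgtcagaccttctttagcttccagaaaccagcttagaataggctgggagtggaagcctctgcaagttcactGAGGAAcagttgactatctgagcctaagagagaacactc
Pf4 (chr5:90772185-90772434, plus strand): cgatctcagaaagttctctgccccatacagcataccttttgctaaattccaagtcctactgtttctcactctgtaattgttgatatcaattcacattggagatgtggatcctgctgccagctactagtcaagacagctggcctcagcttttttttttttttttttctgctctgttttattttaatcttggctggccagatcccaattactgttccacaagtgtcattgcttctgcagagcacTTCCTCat
Ccl6 (chr11:83593088-83593337, minus strand): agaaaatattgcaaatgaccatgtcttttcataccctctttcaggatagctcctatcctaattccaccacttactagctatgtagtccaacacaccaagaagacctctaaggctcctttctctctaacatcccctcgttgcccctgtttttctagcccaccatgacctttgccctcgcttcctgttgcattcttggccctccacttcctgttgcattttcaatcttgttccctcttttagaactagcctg
Ccl9 (chr11:83578637-83578886, minus strand): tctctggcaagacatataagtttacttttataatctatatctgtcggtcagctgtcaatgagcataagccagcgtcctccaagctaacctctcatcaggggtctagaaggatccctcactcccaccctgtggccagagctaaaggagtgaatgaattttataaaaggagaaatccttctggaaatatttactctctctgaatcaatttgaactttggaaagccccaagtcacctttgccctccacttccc

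All 31 genes could be read from the table, and 30 of them passed the filter on low counts (10 counts at the median library size, 4.01 CPM, in at least 3 libraries). Cd163, a scavenger receptor for haemoglobin, did not pass. It had 24 counts over all 39 libraries, at most 3 in a library, so a change in it was not detectable at this depth. For 8 of the 30 (Ptprc, Mrc1, Adgre1, Cd52, Aif1, Ms4a7, Fcgr2b and Clec4n), no untreated library reached the filter's level, so their passing rested on treated libraries. Differences below are log2 differences ± SE from a model with 3 libraries per group. A gene was called where the adjusted p of edgeR's quasi-likelihood test (Benjamini-Hochberg over 14419 tested genes) was under 0.05.

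The exons of 6 of the genes overlap those of another annotated gene in the GENCODE annotation of GRCm38, and whether counts used strand is not given in the sources used here. They are Csf1r with Hmgxb3, Itgam with Gm49368, Cd52 with Crybg2, Coro1a with Bola2, Lcp1 with Gm15628 and Gm15629, and Fcgr2b with Gm38204. Reads of such pairs cannot be told apart with certainty.

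Against untreated cells, few of the 31 genes were called at 2 h and 24 h. At 2 h, 0 were called at 1 and at 100 µg/ml, where 6.15% and 5.16% of all tested genes were called. At an unadjusted p under 0.05 the count was 3 at each of these doses, and DESeq2 also called 0. At 10 µg/ml, 2 were lower, where 5.1% of all tested genes were lower. They were Lyz2, which encodes the lysozyme of myeloid cells, at -0.42 ± 0.10 (adjusted p = 0.00242), and the chemokine gene Ccl6 at -0.53 ± 0.18 (adjusted p = 0.0454). The count was 1, without Ccl6, on leaving out the first or the second untreated library or the first or the second 10 µg/ml library. At 24 h, 3, 2 and 6 were higher at 1, 10 and 100 µg/ml, where 10.9%, 12.5% and 16.8% of all tested genes were higher, and 0, 1 and 1 were lower, against 14.3%, 15.3% and 19.9%. These shares are near or below those of all genes.

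Laptm5, which encodes a lysosomal membrane protein of blood cells, was the gene called higher at every dose after 24 h. It stood at 10.8, 9.47 and 9.79 CPM in the 3 untreated libraries and at 16.1, 16.6 and 18.6 CPM at 1 µg/ml. At 10 µg/ml it stood at 15.4, 16.7 and 14.3 CPM, and at 100 µg/ml at 15.0, 18.3 and 14.6 CPM. All 9 treated libraries lay above the untreated ones. The differences were 0.76 ± 0.20, 0.61 ± 0.21 and 0.66 ± 0.20 (adjusted p = 0.00411, 0.0226 and 0.009). The call at 10 µg/ml was lost without the second or the third untreated library or the first or second treated one, with adjusted p up to 0.0862. The call at 100 µg/ml was lost without the second treated library (adjusted p = 0.0694).

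No other gene was called at every dose after 24 h. Lyz2 rose by 0.43 ± 0.10 and 0.50 ± 0.10 at 1 and 100 µg/ml. Ccl9, a chemokine gene, rose by 0.69 ± 0.19 and 0.53 ± 0.20 at 1 and 10 µg/ml. At 100 µg/ml Cybb, the catalytic subunit of the phagocyte oxidase, rose by 0.95 ± 0.26, Csf1r by 0.85 ± 0.35, Coro1a, an actin-binding protein of blood cells, by 0.81 ± 0.30, and Cd68, a lysosomal glycoprotein, by 0.80 ± 0.24. Ccl6 fell by 1.40 ± 0.20 at that dose, and Gpnmb, a membrane glycoprotein of lysosome-rich cells, fell by 0.39 ± 0.14 at 10 µg/ml. Of these calls, those of Lyz2 and Ccl6 held with each library left out in turn, and the others were lost on leaving out at least 1 library.

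The counts at 24 h moved with single libraries. At 1 µg/ml the count went from 3 to 5, 6 and 5 without the first untreated, the second untreated and the first treated library. At 10 µg/ml it went from 3 to 1, 0 and 1 without the first untreated, the third untreated and the first treated library. At 100 µg/ml it went from 7 to 3 without the second treated library.

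From 48 h most of the genes were higher. At 48 h, 24, 24 and 20 of the 31 were called higher at 1, 10 and 100 µg/ml, where 16%, 17% and 19.1% of all tested genes were higher, and 18 were higher at all 3 doses. Without the first or the third untreated library the count at 100 µg/ml and 48 h fell from 20 to 13, so at most 13 genes were then higher at all 3 doses. At 72 h, 29, 29 and 27 were higher, where 18.1%, 19.3% and 22.5% of all tested genes were higher, and 27 were higher at all 3 doses. The 12 comparisons share the untreated libraries, so their counts are not independent. For all tested genes, the share higher at all 3 doses was not computed, so 18 and 27 have no share to be set against. Ccl6 was the gene called lower at 48 h and at 72 h, in both cases at 100 µg/ml, where 20.9% and 23.3% of all tested genes were lower. The 27 include Ptprc, Mrc1, Adgre1, Aif1, Ms4a7 and Fcgr2b, which passed the filter only through treated libraries. Their part in the counts is thus no independent support for a rise, and no count was made without them. The counts are a description of these 31 genes.

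**Figure D2:**
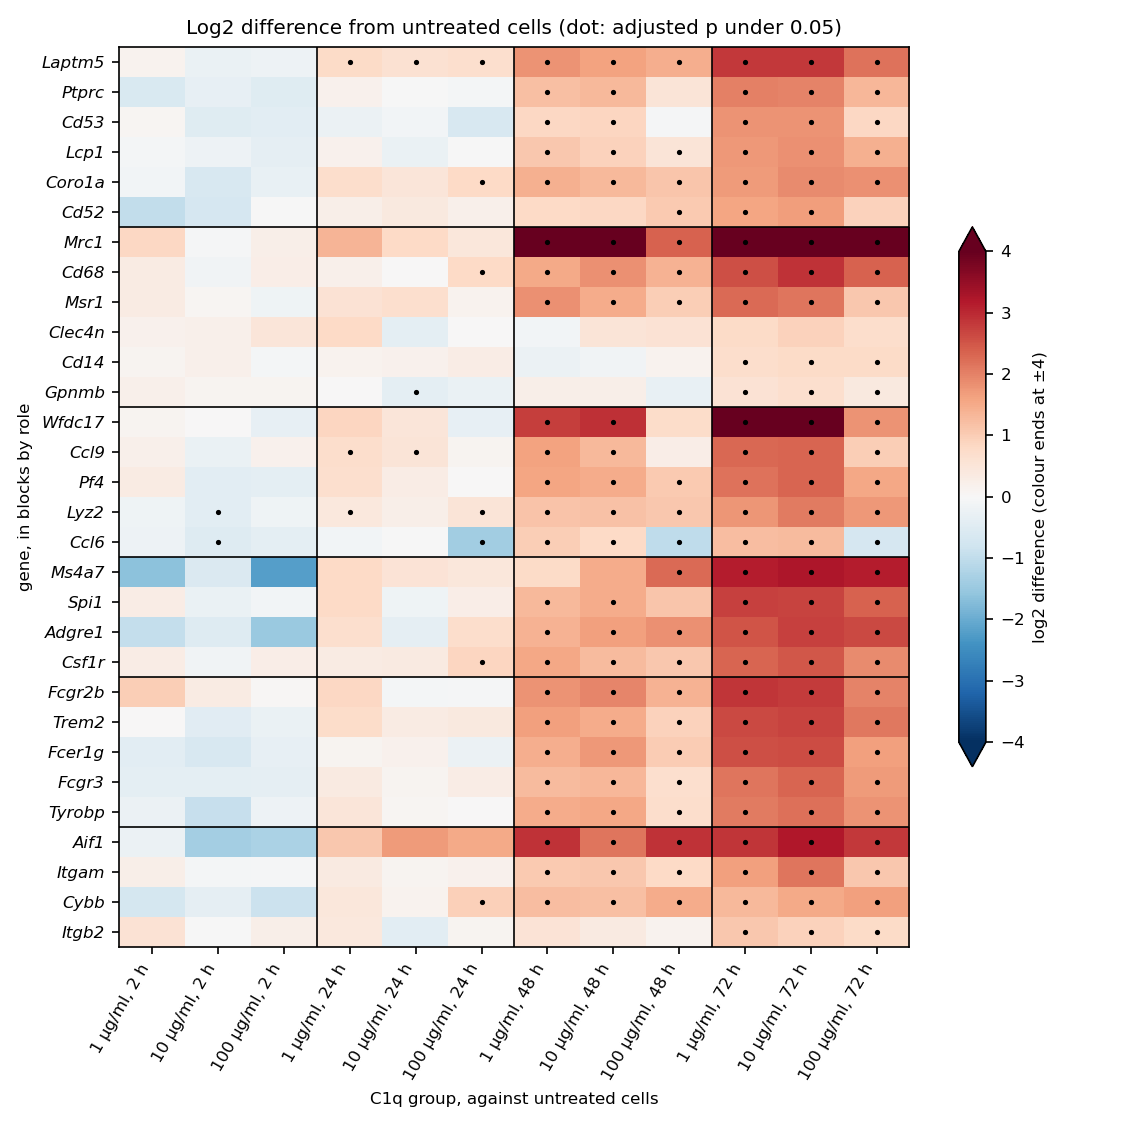
Log2 difference from untreated cells (colour, ending at ±4) of the 30 tested genes (vertical, in blocks by role) in the 12 C1q groups (horizontal). Dots mark adjusted p under 0.05; they are sparse at 2 h and 24 h and fill most of the 48 h and 72 h columns, with Ccl6 lower at 100 µg/ml.

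Among genes common to leukocytes, Ptprc stood at 4.01, 2.63 and 3.41 CPM in the untreated libraries. At 72 h it stood at 14.9, 14.3 and 12.8 CPM with 1 µg/ml, at 10.4, 14.9 and 15.9 CPM with 10 µg/ml and at 9.12, 7.40 and 9.32 CPM with 100 µg/ml. All treated libraries lay above the untreated ones, and those of 100 µg/ml lay below all those of the lower doses. Cd53, a tetraspanin, stood at 14.0, 7.89 and 10.6 CPM untreated and at 39.2, 38.7 and 37.6 CPM after 72 h of 1 µg/ml. With 100 µg/ml it stood at 15.7, 21.4 and 21.9 CPM, above the untreated libraries and below those of the lower doses. Laptm5 rose by 2.83 ± 0.16, 2.83 ± 0.16 and 2.16 ± 0.18 at 72 h, and Lcp1, an actin-bundling protein, by 1.73 ± 0.17, 1.84 ± 0.16 and 1.41 ± 0.17. Cd52, a small surface glycoprotein, rose by 1.57 ± 0.38 and 1.68 ± 0.37 at the lower doses and stood at 0.94 ± 0.42 at 100 µg/ml (adjusted p = 0.061).

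Among lectins and scavenger receptors, Mrc1, the macrophage mannose receptor, changed most. It stood at 0.802, 1.05 and 0.852 CPM in untreated cells, which is 2 counts in each library, so its fold rests on few counts. After 72 h of 1 µg/ml it stood at 46, 37.9 and 48.8 CPM, and with 10 µg/ml at 39.6, 50.8 and 56.3 CPM. With 100 µg/ml it stood at 14.7, 18.3 and 21.9 CPM, above the untreated libraries and below those of the lower doses. At 24 h its 9 treated libraries held 0.731 to 2.63 CPM and it was not called at any dose. The rise came between 24 h and 72 h, with steps of 2.62 ± 0.24 from 24 h to 48 h and 1.71 ± 0.13 from 48 h to 72 h over the 3 doses.

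Msr1, a scavenger receptor for modified lipoproteins, rose by 2.28 ± 0.29, 2.15 ± 0.29 and 1.08 ± 0.34 at 72 h. The last of these was lost without the first untreated library (adjusted p = 0.131). Cd68 rose by 2.59 ± 0.20, 2.90 ± 0.19 and 2.34 ± 0.21. Cd14, a co-receptor for lipopolysaccharide, had a later and smaller rise. It stood at 20.4, 24.7 and 20.0 CPM untreated, at 14.1 to 28.4 CPM in the 9 libraries of 48 h and at 31 to 42.1 CPM in the 9 libraries of 72 h. Its libraries at 48 h overlapped the untreated ones and those at 72 h lay above them. Clec4n, the lectin Dectin-2, was not called at any dose or time and stood at 1.40 to 6.04 CPM in the 9 libraries of 72 h, where its log2 difference was 0.71 to 0.93. In simulated counts for 1 µg/ml at 72 h against untreated cells (14101 genes), 70% of 2-fold changes were called, so a change of that size can be missed. The changed genes, 50 at each size of change, were drawn above a floor on mean counts and pooled over levels. They were far fewer than the genes called in the data, so the rates there may differ. The rate for a gene as low as Clec4n was not measured.

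**Figure D3:**
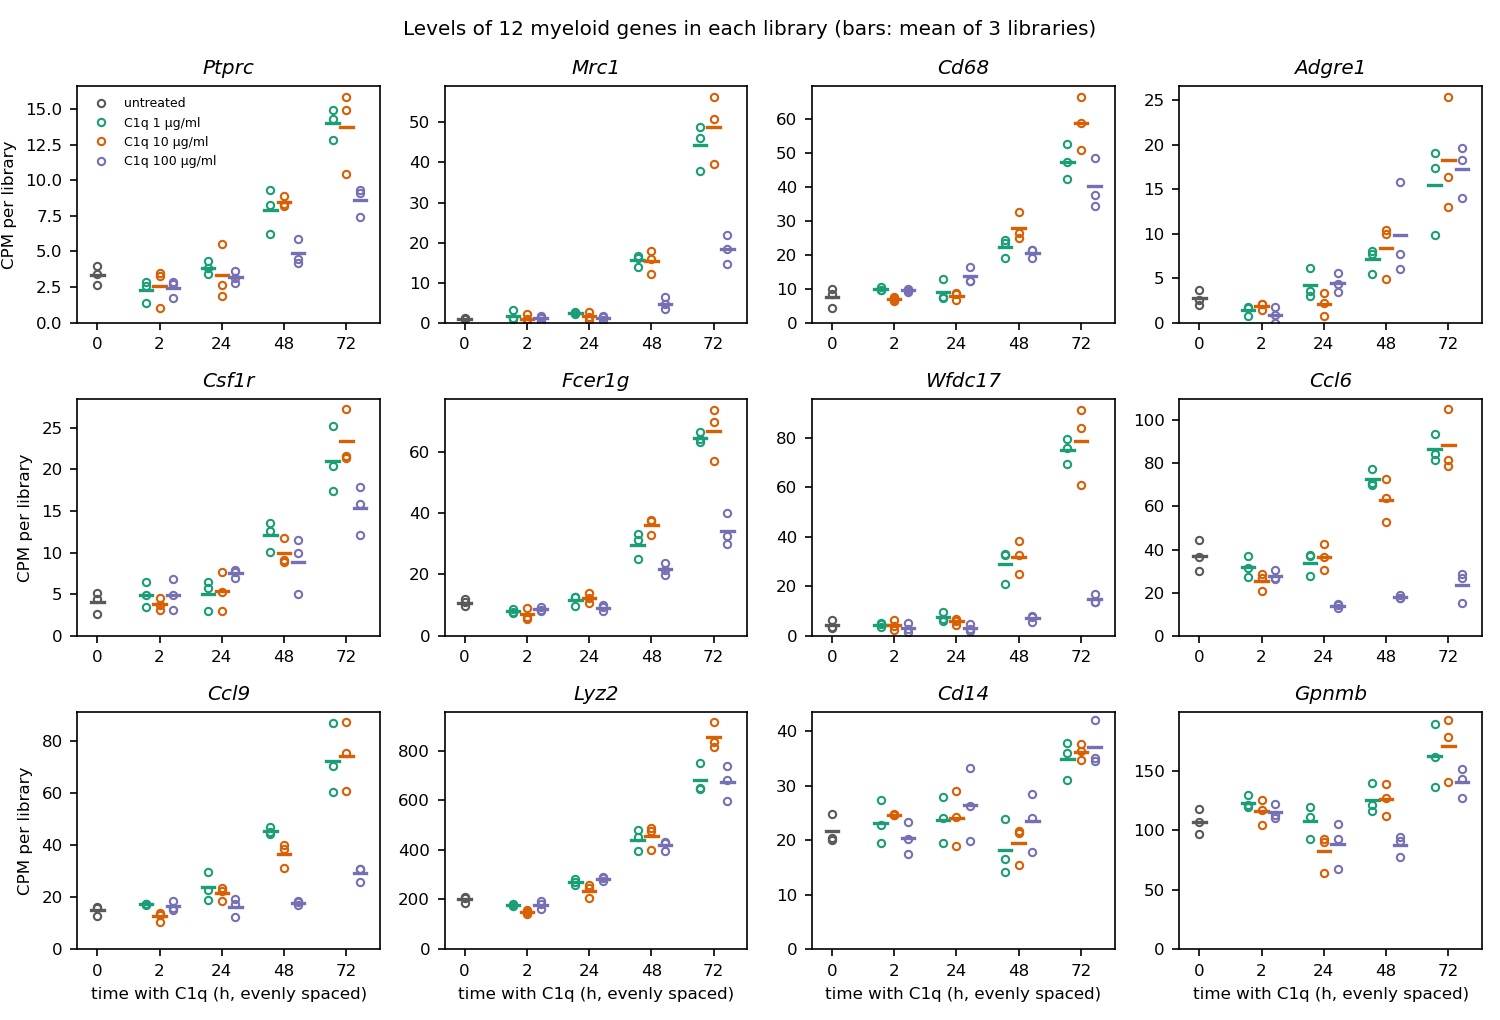
CPM per library (vertical axis, each panel from 0) of 12 of the genes by hours with C1q, with times evenly spaced and not to scale. Points are libraries, coloured by dose, and bars are means of 3; Mrc1, Wfdc17 and Ccl9 at 100 µg/ml lie below the lower doses at 72 h, and Ccl6 at 100 µg/ml stays at or below the untreated level.

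All 5 genes of the Fc receptors, ITAM adaptors and their partners were called higher at each dose at 48 h and at 72 h. At single doses, 16% to 19.1% and 18.1% to 22.5% of all tested genes were higher. The share higher in all of these comparisons was not computed. Fcer1g, the common gamma chain of Fc receptors, stood at 9.62, 11.1 and 11.9 CPM untreated and at 66.5, 63.1 and 64.1 CPM after 72 h of 1 µg/ml. With 100 µg/ml it stood at 40.04, 30 and 32.6 CPM, between the untreated cells and the lower doses with no overlap. Its differences at 72 h were 2.57 ± 0.16, 2.62 ± 0.15 and 1.64 ± 0.17. Trem2, a lipid-sensing receptor, rose by 2.65 ± 0.24, 2.69 ± 0.23 and 2.11 ± 0.26, and Tyrobp, its adaptor, by 2.09 ± 0.23, 2.20 ± 0.22 and 1.78 ± 0.24. The low-affinity Fc receptors Fcgr3, which activates, and Fcgr2b, which inhibits, rose by 2.14 ± 0.18 and 2.87 ± 0.34 at 1 µg/ml. Fc receptor genes resemble each other, and how reads with several matches were counted is not given in the sources used here, so their split is uncertain. At 100 µg/ml and 48 h the calls of Tyrobp, Trem2, Fcgr3 and Fcgr2b were each lost on leaving out at least 1 library.

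Among lineage genes, Csf1r stood at 4.41, 2.63 and 5.11 CPM untreated and at 20.5, 17.4 and 25.2 CPM after 72 h of 1 µg/ml. With 100 µg/ml it stood at 12.2, 17.9 and 15.8 CPM, above the untreated libraries and overlapping those of 1 µg/ml. Spi1 rose by 2.72 ± 0.36, 2.69 ± 0.36 and 2.34 ± 0.38 at 72 h. Adgre1, which encodes the macrophage surface protein F4/80, rose by 2.51 ± 0.40, 2.74 ± 0.38 and 2.66 ± 0.40. Ms4a7, a membrane protein of macrophages, rose by 3.13 ± 0.55, 3.22 ± 0.54 and 3.15 ± 0.55, from 6 counts over the 3 untreated libraries. For Adgre1 and Ms4a7 the differences at the 3 doses lay within 1 SE of each other.

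The integrin pair Itgam and Itgb2, which together form complement receptor 3, rose by different amounts. Itgam rose by 1.64 ± 0.27, 2.13 ± 0.26 and 1.08 ± 0.30 at 72 h. Itgb2 rose by 1.08 ± 0.25, 0.91 ± 0.25 and 0.75 ± 0.26, and was not called at 48 h at any dose. The last of these was lost on leaving out any of 4 libraries, the first or the third untreated or the first or second treated one, with adjusted p of 0.0542 to 0.069. Cybb rose by 1.30 ± 0.26, 1.5 ± 0.25 and 1.63 ± 0.25 at 72 h, and over the 3 doses its step from 48 h to 72 h was 0.17 ± 0.12 (adjusted p = 0.38). Aif1, a calcium-binding protein of macrophages, was called higher at each dose at 48 h and 72 h. At 10 µg/ml and 48 h the call was lost on leaving out any of 4 libraries, the second or the third untreated or the first or the third treated one, with adjusted p of 0.0873 to 0.158. Its untreated libraries stood at 0.802, 0 and 0.426 CPM, so no fold is given, and its 9 libraries of 72 h stood at 1.17 to 5.67 CPM.

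Among the secreted products, Wfdc17, Ccl9 and Ccl6 had lower levels at 100 µg/ml than at the other doses after 72 h. Wfdc17, a small secreted protein of activated macrophages, stood at 3.61, 6.31 and 2.98 CPM untreated. After 72 h it stood at 75.9, 69.3 and 79.4 CPM with 1 µg/ml, at 83.9, 91.0 and 60.8 CPM with 10 µg/ml and at 13.7, 13.6 and 16.8 CPM with 100 µg/ml. All were above the untreated libraries, and the 100 µg/ml libraries lay far below the rest, with differences of 4.15 ± 0.25, 4.22 ± 0.25 and 1.8 ± 0.33. Ccl9 stood at 16, 15.8 and 12.8 CPM untreated, at 86.9, 60.4 and 70.3 CPM after 72 h of 1 µg/ml and at 25.8, 30.8 and 30.8 CPM with 100 µg/ml. It was called higher at both of these doses.

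Ccl6 went in opposite directions. It stood at 36.5, 44.2 and 30.2 CPM untreated. After 72 h it stood at 93.3, 81.7 and 84.4 CPM with 1 µg/ml, at 78.9, 81.4 and 105 CPM with 10 µg/ml and at 26.9, 15.2 and 28.9 CPM with 100 µg/ml. The libraries of the lower doses lay above the untreated ones and those of 100 µg/ml below them. The differences were 1.24 ± 0.15, 1.27 ± 0.15 and -0.66 ± 0.19 (adjusted p = 5.5e-09, 2e-09 and 0.0034). Without the second 100 µg/ml library the last was -0.42 (adjusted p = 0.0766). At 24 h and 48 h the fall at 100 µg/ml was 1.40 ± 0.20 and 1.02 ± 0.20, and it held with each library left out.

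Lyz2 and Pf4 completed the secreted group. Lyz2 stood at 208, 208 and 186 CPM untreated, at 645, 649 and 751 CPM after 72 h of 1 µg/ml, at 833, 813 and 915 CPM with 10 µg/ml and at 740, 596 and 683 CPM with 100 µg/ml. The libraries of 1 and 100 µg/ml overlapped, and all lay above the untreated ones. Lyz2 has a near copy, Lyz1, and the split of their reads is uncertain. Pf4, a chemokine of platelets that macrophages also make, rose by 2.17 ± 0.24, 2.34 ± 0.23 and 1.56 ± 0.26. The platelet and red cell genes on a separate list summed to 1.56 to 6.39 CPM in the untreated and 72 h libraries.

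Over the 3 doses, 14 of the 31 genes were higher at 24 h than at 2 h, where 29.3% of all tested genes were higher, and 1, Gpnmb, was lower, where 28.6% were lower. From 24 h to 48 h, 26 were higher (12.8% of all tested genes), and from 48 h to 72 h, 25 were higher (8.38%). The median difference of the tested genes was 0.87 and 0.81 in these later steps. Cd14 stood at -0.29 ± 0.11 in the first of them (adjusted p = 0.053) and rose by 0.83 ± 0.11 in the second. These steps compare treated libraries with treated libraries, but time in culture and C1q cannot be told apart in them either.

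The doses were compared at the same time, with 100 µg/ml set against the mean of 1 and 10 µg/ml. At 2 h, 0 of the 31 genes differed, where 4.13% of all tested genes did, and 0 had an unadjusted p under 0.05 (edgeR), and DESeq2 called 0 as well. At 24 h, 2 were higher (5.74% of all tested genes) and 3 were lower (8.79%). At 48 h, 11 were lower (8.43%) and 0 higher (5.46%), and at 72 h, 16 were lower (8.3%) and 0 higher (6.6%). Of the genes lower at 48 h, 9 were also lower at 72 h: Mrc1, Fcer1g, Ccl6, Ccl9, Wfdc17, Cd53, Trem2, Lcp1 and Fcgr3. At 48 h the calls of Trem2, Lcp1 and Fcgr3 among these were lost on leaving out at least 1 library. For all tested genes, the share lower at both 48 h and 72 h was not computed.

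**Figure D4:**
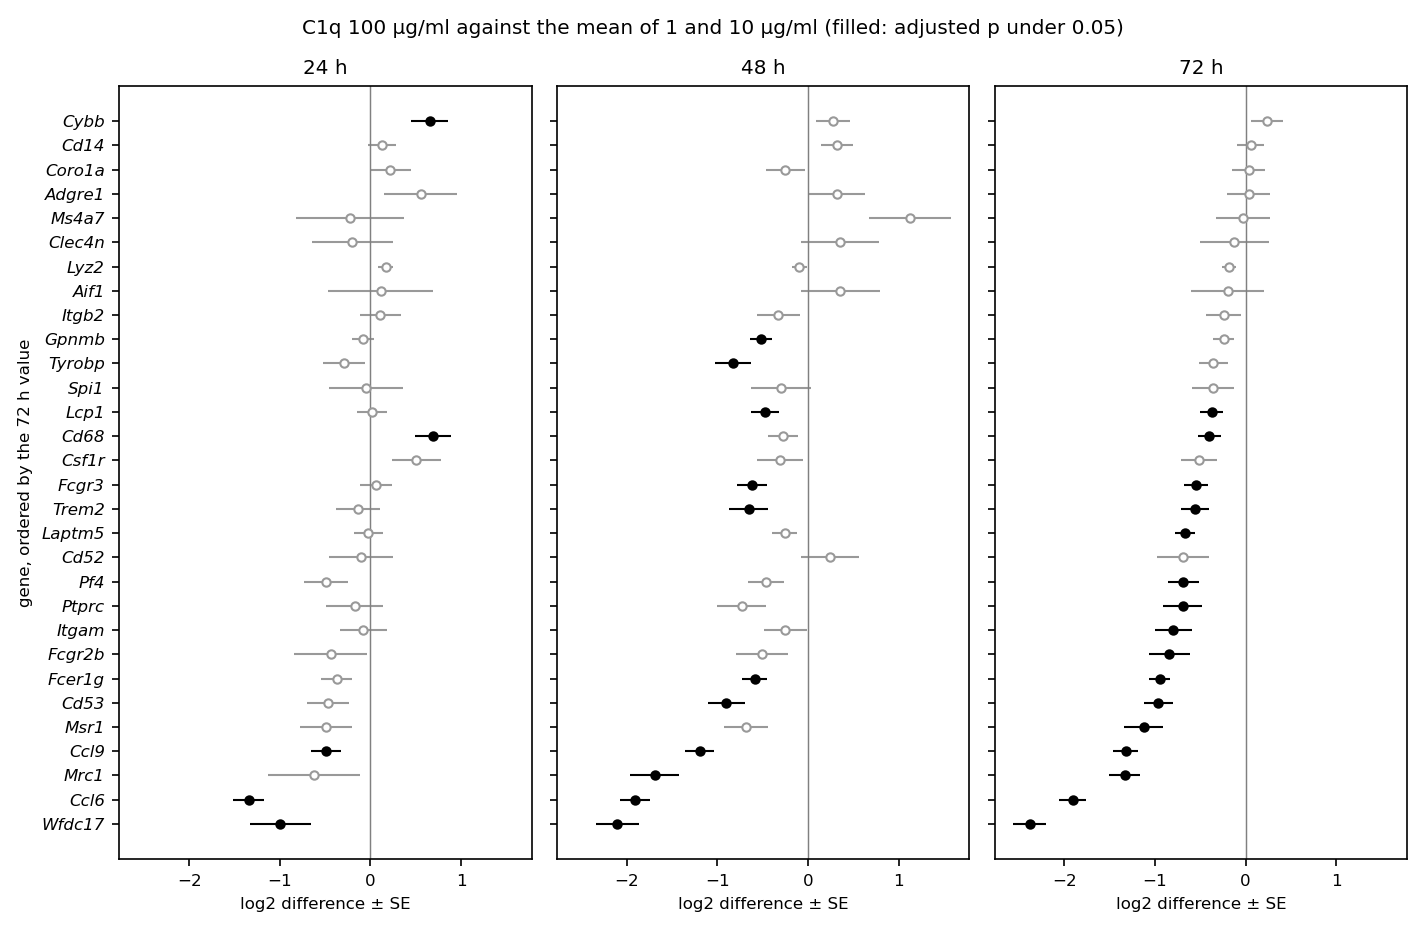
Log2 difference ± SE (horizontal) between 100 µg/ml and the mean of 1 and 10 µg/ml for the 30 tested genes (vertical, ordered by the 72 h value) at 24, 48 and 72 h. Filled points have adjusted p under 0.05; at 72 h Wfdc17 at -2.38 and Ccl6 at -1.91 are farthest below 0, and Adgre1, Ms4a7, Coro1a and Cd14 lie near 0.

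At 72 h the differences ran from -2.38 ± 0.18 for Wfdc17 and -1.91 ± 0.15 for Ccl6 (adjusted p = 5.9e-14 and 1.5e-13) to values near 0. Mrc1 stood at -1.34 ± 0.17, Ccl9 at -1.32 ± 0.13 and Msr1 at -1.13 ± 0.22. Cd53, Fcer1g and Fcgr2b stood at -0.96 ± 0.16, -0.95 ± 0.11 and -0.84 ± 0.23. The 3 libraries of 100 µg/ml lay below all 6 of the lower doses for 14 of the 30 tested genes, Wfdc17, Ccl6, Ccl9 and Mrc1 among them. Of all tested genes, 18.4% did not overlap in this comparison, in either direction. Coro1a at 0.04 ± 0.18, Adgre1 at 0.03 ± 0.24, Ms4a7 at -0.03 ± 0.30 and Cd14 at 0.06 ± 0.15 were not called, and their errors leave room for differences of either sign. The calls of Cd68, Lcp1, Ptprc, Trem2 and Fcgr2b at 72 h were each lost on leaving out at least 1 library. Of the 5 secreted products 4 were lower, where 8.3% of all tested genes were. The 4 lineage genes (Csf1r, Spi1, Adgre1 and Ms4a7) were without a call, and at that share a count of 0 of 4 says nothing about them as a group.

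Of the genes lower at 72 h, Mrc1 lies on chromosome 2 at 14229392 to 14332057, Wfdc17 on chromosome 11 at 83703991 to 83706268, and Ccl6 and Ccl9 close by on chromosome 11 at 83587882 to 83593087 and 83572919 to 83578636 (GRCm38). These are protein-coding genes, and the last 3 are the ones that were lower at 100 µg/ml at each of 24, 48 and 72 h.

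At 24 h the difference between doses was smaller and mixed. Ccl6 stood at -1.34 ± 0.17, with 14.3, 12.8 and 14.6 CPM at 100 µg/ml against 27.5 to 42.6 CPM in the 6 libraries of the lower doses, which did not overlap. Wfdc17 stood at -0.99 ± 0.34 and Ccl9 at -0.49 ± 0.16, and like Ccl6 they were lower at the later times as well. Cd68 and Cybb were higher at 24 h, at 0.69 ± 0.20 and 0.65 ± 0.21. The count of 5 at this time fell to 1, Ccl6, without the second 100 µg/ml library. It was 3, 3, 2 and 3 without the second 1 µg/ml, the first 10 µg/ml, the third 10 µg/ml and the third 100 µg/ml library.

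The difference between 100 µg/ml and the lower doses became more negative from 24 h to 72 h for Cd68, at -1.09 ± 0.24 (adjusted p = 0.0036), and for Ccl9, at -0.84 ± 0.22 (adjusted p = 0.022). These 2 genes were called lower in the test of that change, where 0.832% of all tested genes were, and 0 were higher (1.53%). The count fell to 0 without the second 100 µg/ml library of 24 h, and to 1 without the first one or without the first 100 µg/ml library of 72 h.

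Between 10 and 1 µg/ml, over 24, 48 and 72 h, 0 of the 31 genes were called, where 0.0832% of all tested genes were. With edgeR 1 gene, Itgb2, had an unadjusted p under 0.05, at -0.40 ± 0.14 (adjusted p = 0.413), and DESeq2 called 0. The differences of the tested genes ran from -0.40 to 0.18, with the widest error for Ms4a7 at 0.18 ± 0.33.

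Set against the 6 pan-leukocyte genes within each library, most of the genes overlapped between doses and some did not. At 72 h, the libraries of 100 µg/ml overlapped those of the lower doses for 22 of the 31 genes, lay below them for 6 and above them for 3. In CPM, 18.4% of all tested genes did not overlap in the same comparison. That share was not computed for the ratios, so the counts describe these genes only. The ratios were chosen after values had been seen and are given with no test. At 72 h Wfdc17 stood at 34.6 ± 5.69 counts per 100 pan-leukocyte counts in the 6 libraries of the lower doses and at 9.63 ± 0.985 in the 3 of 100 µg/ml (SD). Ccl6 stood at 39.2 ± 3.29 and 15.6 ± 4.98, Ccl9 at 33 ± 4.94 and 19.1 ± 1.18, Mrc1 at 20.9 ± 2.42 and 12.0 ± 1.96, and Msr1 at 9.74 ± 1.20 and 6.41 ± 0.801. In each of these, and for Cd53, itself 1 of the 6, the libraries of 100 µg/ml lay below all those of the lower doses. Cybb and Cd14 lay the other way, at 6.37 ± 1.46 and 10.9 ± 1.06 and at 16 ± 1.55 and 24.5 ± 3.76, as did Coro1a, also 1 of the 6. Csf1r, at 9.95 ± 1.24 and 10.0 ± 1.62, overlapped between doses. The denominator held 112 to 126 counts in the untreated libraries, so ratios there are coarse.

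**Figure D5:**
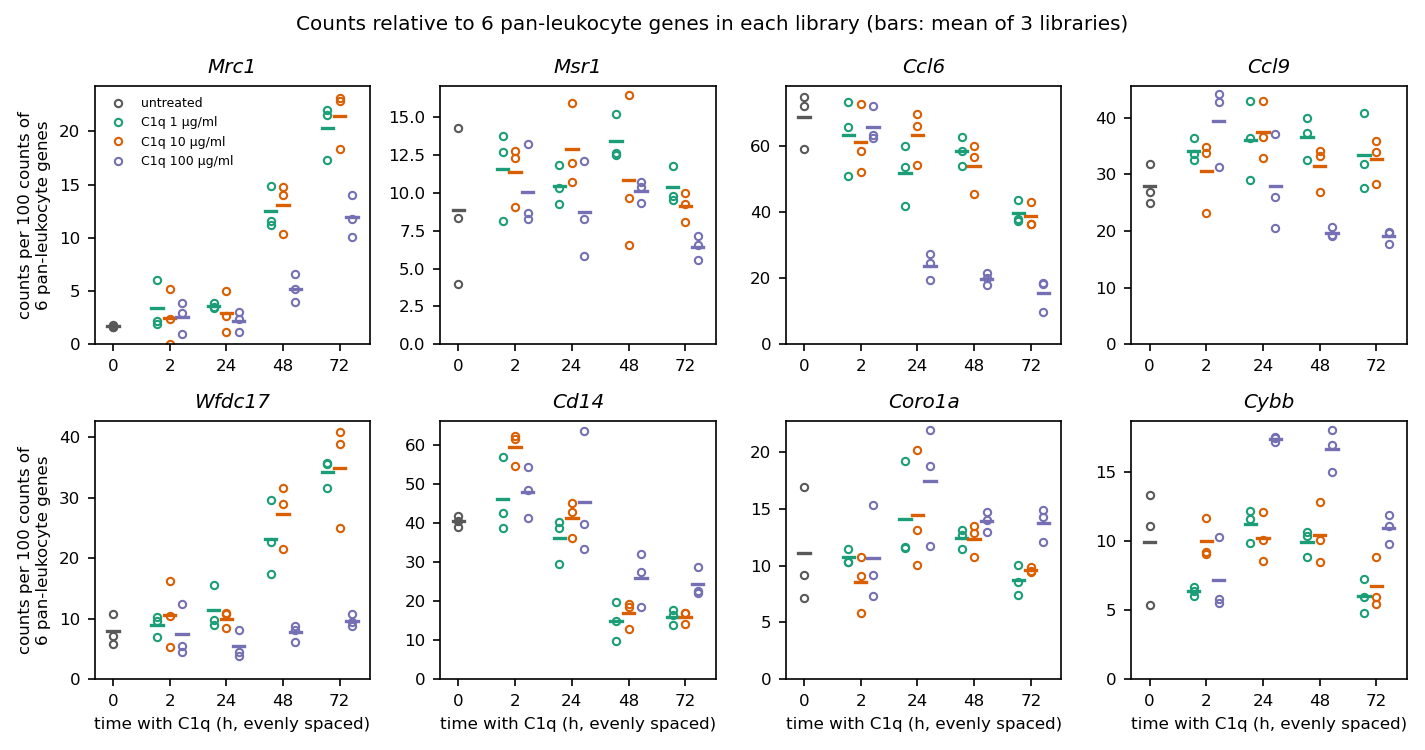
Counts per 100 counts of 6 pan-leukocyte genes in each library (vertical axis, each panel from 0) for 8 genes by hours with C1q, with times evenly spaced and not to scale. Coro1a is itself 1 of the 6. None of the 8 genes shown overlapped between doses at 72 h, and the 22 genes that did are not shown. Points are libraries, coloured by dose, and bars are means of 3; at 72 h Wfdc17 falls from a mean of 34.6 at the lower doses to 9.63 at 100 µg/ml, and Cybb goes from 6.37 to 10.9.

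Genes on further lists, named for related cell types and pathways, were also read. Which cells their RNA came from was not tested. Of 18 genes of interstitial macrophages, the macrophages of lung connective tissue, 11 were tested, and 7, 8 and 7 were higher at 72 h with 1, 10 and 100 µg/ml and 0 lower. They include C1qa, C1qb and C1qc, the chains of C1q, which stood at 6.72 ± 2.27, 8.03 ± 2.95 and 4.83 ± 0.713 CPM in untreated cells. After 72 h of 1 µg/ml they stood at 82.0 ± 8.37, 155 ± 12.1 and 81.4 ± 5.92 CPM, and with 100 µg/ml at 42.5 ± 3.88, 85.7 ± 12.7 and 53.0 ± 7.02 CPM (SD, n = 3). They were lower at 100 µg/ml than at the lower doses, at log2 differences of -0.88 ± 0.12, -0.87 ± 0.10 and -0.60 ± 0.12. Of 12 genes that signal behind ITAM motifs, 8 were tested, and 6, 8 and 6 were higher at 72 h. Sirpa, an inhibitory receptor, rose by 1.53 ± 0.14 at 1 µg/ml, and Lat2, an adaptor, by 2.06 ± 0.31. Of 5 genes of the phagocyte oxidase, 4 were tested, and 3, 4 and 3 were higher, among them Rac2, its small GTPase, by 2.27 ± 0.31 and Ncf1, a cytosolic subunit, by 2.62 ± 0.36. Of 10 myeloid transcription factors, 9 were tested, and 7, 8 and 8 were higher, and Cebpb, a factor of myeloid maturation, rose by 3.19 ± 0.36. Of 10 genes of blood cell cytoskeleton and signalling, 9 were tested, and 7, 7 and 6 were higher and 1 was lower at each dose. In these comparisons 18.1%, 19.3% and 22.5% of all tested genes were higher, and 2900, 2965 and 3357 of the 14419 were lower.

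Markers of other blood cells were read by list as well, and their part in the results was not tested. At 72 h with 1, 10 and 100 µg/ml, 18.1%, 19.3% and 22.5% of all tested genes were higher. Of the 14419, 2900, 2965 and 3357 were lower. Few genes were tested in each list, so a count called says little about the list. Of 8 monocyte genes, 2 passed the filter, and Plac8 was lower at 72 h, at -1.17 ± 0.18 with 1 µg/ml. Plac8 made up most of the level of the list, with 146 ± 16.7 CPM untreated and 64.8 ± 8.17 CPM after 72 h of 1 µg/ml (SD, n = 3). The monocyte list summed to 132 to 165 CPM untreated and to 58.8 to 92.8 CPM at 72 h. Of 12 alveolar macrophage genes 4 were tested, with 2 higher at each dose at 72 h and Fabp4, a fatty acid carrier, lower at 100 µg/ml, at -1.78 ± 0.31. The list summed to 27.7 to 30.2 CPM untreated and to 24.2 to 56.5 CPM at 72 h. Of 11 dendritic cell and MHC class II genes 4 were tested with 0 higher at 72 h and Cd74, the invariant chain, lower at 1 and 10 µg/ml, at -0.68 ± 0.22 and -0.61 ± 0.21, and the list summed to 30.9 to 41 CPM untreated and to 25.6 to 39 CPM at 72 h. Of 8 neutrophil genes 4 were tested, with Mmp9, a gelatinase, higher and Mmp8, a collagenase, lower at 100 µg/ml. They summed to 216 to 237 CPM untreated and to 125 to 257 CPM at 72 h, and nearly all of this was Mmp8, at 218 ± 9.93 CPM untreated and 115 ± 4.75 CPM after 72 h of 100 µg/ml. The neutrophil genes S100a8 and Ly6g had 40 and 1 counts over all 39 libraries. The 4 of 8 mast cell genes present in the table summed to 2.1 to 12.6 CPM in these libraries.

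The ligands of Csf1r moved in opposite ways. Csf1, the main growth factor of macrophages, stood at 372 ± 17.6 CPM untreated and at 610 ± 17.5 CPM after 2 h of 1 µg/ml (SD, n = 3). It rose by 0.71 ± 0.09 and 0.74 ± 0.09 at 2 h with 1 and 10 µg/ml and stood at 0.09 ± 0.09 with 100 µg/ml. It was lower at 24, 48 and 72 h at every dose, with -0.67 ± 0.10, -0.62 ± 0.10 and -0.45 ± 0.10 at 72 h. Il34, the other ligand, rose by 1.26 ± 0.35, 0.90 ± 0.36 and 1.66 ± 0.34 at 72 h, from 4.05 ± 2.16 CPM untreated.

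Across the 39 libraries, the genes followed each other to different degrees. The correlation of a gene with the mean of the other tested genes, on a log2 CPM scale, ran from 0.971 for Fcer1g and 0.968 for Laptm5 to 0.393 for Clec4n. Cd14 at 0.47, Gpnmb at 0.613 and Ccl6 at 0.621 were also low. Outside the 31 genes, the named genes most like their mean over the 39 libraries were Mpeg1, a pore-forming protein of macrophages, at 0.973, C1qa at 0.966, Smoc2, a matricellular protein, at 0.965 and Gas6, a ligand of phagocyte receptors, at 0.964. They were followed by Fcrls, C1qb, Nxpe5, C1qc, Gpc3, Cd84, Ms4a6d and Stab1, down to 0.944. All these libraries share the course over time, so the values describe that course and carry no test.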

How the data were processed

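Libraries of poly(A) RNA held the 5′ ends of transcripts from cultured lung fibroblasts, per the labels. The submitters' processing notes name cutadapt 2.1.0, Bowtie2 2.4.2 and GRCm38. Not given in the sources used here are the counting tool, the annotation, and how strand, reads with several matches and molecular identifiers were handled. The deposited table holds raw counts of 30012 genes in 39 columns. For 9 columns the name is spelled differently from the sample's title, and the match rests on its serial number. Library totals ran from 1806106 to 3012518, which limits genes of a few counts most.

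The members and gene lists were chosen with earlier results of these data known. Groups are dose and time, with 3 libraries in each of 13. The quasi-likelihood test of edgeR 4.0.16 (under R 4.3.3) was run in 1 fit of all 39 libraries, with TMM scaling, edgeR's default filter (14419 genes, 99.4% of counts) and Benjamini-Hochberg adjustment at 0.05. SE is the log2 difference divided by the square root of F. There were 21 comparisons: 12 groups against untreated cells, 100 µg/ml against the mean of 1 and 10 µg/ml at 4 times, 3 steps in time, 10 against 1 µg/ml, and the change of the dose difference from 24 h to 72 h. Any of the 31 genes could be named, with full statistics for up to 8 per comparison by size, plus up to 4 called genes per further list by mean CPM, Csf1, Il34 and the C1q chains, and the 12 genes best correlated with the members' mean. Replicate pairs differed by more than sampling noise, with chi-square per degree of freedom of 1.31 to 8.48 over 39 pairs. Alternatives were DESeq2 1.42.0, RLE scaling, other filters, counts without the gene LOC118568312, without the 9 columns, only the libraries compared, and each library left out. On simulated counts for 1 µg/ml at 72 h against untreated cells (14101 genes), 4.29% of calls were false. Of 1.5-, 2-, 4- and 8-fold changes, 48%, 70%, 94% and 100% were called, over genes above a floor on mean counts. The simulation changed 50 genes at each size, far fewer than were called in the data, so its rates may differ from the real ones. Plots used Python 3.11.15 with matplotlib 3.10.9.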

Additional observations from a re-analysis of the deposited data

Results flagged for a closer look

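For 2 genes the effect of the highest dose differed between times, by a test of the difference itself (edgeR's quasi-likelihood test, 28 of the 30 tested genes were not called). For Cd68 the log2 difference between 100 µg/ml and the lower doses was 0.69 ± 0.20 at 24 h and -0.40 ± 0.13 at 72 h, a change of -1.09 ± 0.24 (adjusted p = 0.00364). For Ccl9 it was -0.49 ± 0.16 at 24 h and -1.32 ± 0.13 at 72 h, a change of -0.84 ± 0.22 (adjusted p = 0.022). Without the second 100 µg/ml library of 24 h the changes were -0.93 (adjusted p = 0.0521) for Cd68 and -0.78 (adjusted p = 0.094) for Ccl9. The Ccl9 call was also lost without the first 100 µg/ml library of 24 h, at -0.69 (adjusted p = 0.167), or of 72 h, at -0.76 (adjusted p = 0.0881).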

How the results depend on the processing

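Among values called in the main run or in the alternative, none changed sign. Values called in neither were not checked for sign. Of 270 called gene values, 251 kept their call with DESeq2 and 19 lost it. RLE scaling, counts without the gene LOC118568312, a filter of at least 10 counts in at least 6 libraries, no filter and only the libraries compared lost 1, 1, 1, 8 and 6. With 10 µg/ml at 2 h, the count of genes called was 2, and 1 with DESeq2 or without LOC118568312. With 10 µg/ml at 24 h it was 3, and 1 with DESeq2 or with no filter. For 100 µg/ml against the lower doses at 24 h it was 5, and 3 with DESeq2 or with only the libraries compared. For the change of that difference from 24 h to 72 h it was 2, and 1 with only the libraries compared.

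Leaving out each library in turn gave 1 to 3 at 10 µg/ml and 2 h, and 2 to 6, 0 to 3 and 3 to 8 at 1, 10 and 100 µg/ml and 24 h. At 48 h the counts were 22 to 25, 22 to 24 and 14 to 22, and at 72 h they were 29, 29 and 25 to 29. For 100 µg/ml against the lower doses they were 1 to 5, 8 to 12 and 13 to 17 at 24, 48 and 72 h, and for the change of that difference 0 to 3. For the steps in time they were 14 to 17, 24 to 27 and 25 to 26. Without the 9 columns spelled differently, the groups of 10 and 100 µg/ml at 24 h had no library, so those comparisons had no value. Depth limits Cd163, Clec4n and Aif1 most.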
